A study of Mus musculus with 12 samples.

Results

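The comparison set NHD13 transgenic, Lyl1 knockout thymocytes (3 arrays, called the knockout group) against NHD13 transgenic thymocytes with Lyl1 intact (3 arrays), so 6 of the 12 arrays of the series. Members were chosen by a rule on detection only: a probe was kept where its detection p-value was under 0.05 on 3 or more of these 6 arrays. This kept 18130 of 45281 probes, which stood for 9621 of the 19057 genes with a probe of 1 symbol. The aim was to describe genes and programmes for which all 3 knockout arrays lay on one side of all 3 NHD13 arrays. RNA came from thymus cells sorted as CD4-CD8 double-negative (DN), of C57 BL/6 animals 2 to 3 months old, and each Illumina MouseWG-6 v2.0 beadchip received 300 ng. Both groups carry the NHD13 transgene, and the genotypes as labelled differ by the loss of Lyl1. The 6 wild-type arrays, without transgene or knockout, entered the fit and give a level for orientation. The labels name neither the promoter that drives the transgene nor the form of the Lyl1 allele. No group that lacks Lyl1 without the transgene was analysed here, so the effect of losing Lyl1 in normal thymocytes is not measured here. Whether each array stands for its own animal is not in the labels. The spread behind each p-value is that between arrays and may be technical.

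Lyl1, a close relative of Tal1, belongs to the basic helix-loop-helix factors and is active in stem and progenitor cells of the blood. It pairs with E proteins such as Tcf3, Tcf4 and Tcf12, binds E-boxes in DNA and works in complexes held together by the adaptors Lmo2 and Ldb1, often with a GATA factor. NHD13 joins part of NUP98, a protein of the nuclear pore, to the homeodomain of HOXD13, a fusion known from human myelodysplastic syndrome and leukaemia. DN thymocytes are the youngest T-cell precursors of the thymus. They join segments of their T cell receptor genes with the Rag recombinase and then test the product as a pre-T cell receptor, which contains the Ptcra protein. The title of the series places Lmo2 and Lyl1 downstream of the fusion in thymocyte self-renewal, and the comparison asks which expression levels of transgenic thymocytes go with Lyl1.

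The following promoter windows belong to genes described below and were chosen after their values were seen. They are Olfm5 and Mrvi1 among the falls, Rag1 and Ptcra among the rises, and Ifit3 for the interferon response. Each is a RefSeq window of 300 bases, 250 before and 50 after a start listed for the gene, in build GRCm38.p6, printed 5′ to 3′ on the gene's strand. That start need not be the outermost end of the gene, and for Mrvi1 the first of 2 listed windows was taken. In the first 4, capitals mark the E-box CAGNTG and the GATA motif AGATAA, found on either strand. In Ifit3, capitals mark a form of the interferon-stimulated response element, GAAA, NN and GAAA in a row, also on either strand.
Olfm5 (chr7:104164767-104165066, minus strand): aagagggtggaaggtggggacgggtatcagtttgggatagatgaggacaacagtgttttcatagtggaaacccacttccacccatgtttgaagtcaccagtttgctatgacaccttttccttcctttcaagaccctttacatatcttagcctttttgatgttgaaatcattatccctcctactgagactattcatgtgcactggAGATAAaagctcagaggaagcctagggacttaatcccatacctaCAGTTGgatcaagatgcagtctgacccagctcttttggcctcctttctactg
Mrvi1 (chr7:110982412-110982711, minus strand): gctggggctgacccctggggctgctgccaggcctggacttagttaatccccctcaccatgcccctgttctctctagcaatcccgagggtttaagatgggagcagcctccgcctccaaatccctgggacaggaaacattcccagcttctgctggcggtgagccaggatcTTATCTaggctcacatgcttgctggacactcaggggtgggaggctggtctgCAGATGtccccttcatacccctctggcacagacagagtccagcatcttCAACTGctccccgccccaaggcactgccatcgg
Rag1 (chr2:101649483-101649782, minus strand): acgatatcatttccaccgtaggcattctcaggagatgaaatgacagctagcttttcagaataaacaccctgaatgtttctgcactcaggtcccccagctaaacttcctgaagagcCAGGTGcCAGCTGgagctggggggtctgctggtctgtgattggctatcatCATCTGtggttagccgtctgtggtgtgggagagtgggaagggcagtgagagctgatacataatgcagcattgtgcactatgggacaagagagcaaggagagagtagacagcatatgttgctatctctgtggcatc
Ptcra (chr17:46763663-46763962, minus strand): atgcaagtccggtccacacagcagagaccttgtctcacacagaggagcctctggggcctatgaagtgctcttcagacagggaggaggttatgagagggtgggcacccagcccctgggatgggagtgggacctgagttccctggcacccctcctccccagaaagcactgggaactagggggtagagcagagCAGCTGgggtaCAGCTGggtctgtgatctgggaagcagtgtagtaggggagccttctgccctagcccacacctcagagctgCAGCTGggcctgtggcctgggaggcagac
Ifit3 (chr19:34583279-34583578, plus strand): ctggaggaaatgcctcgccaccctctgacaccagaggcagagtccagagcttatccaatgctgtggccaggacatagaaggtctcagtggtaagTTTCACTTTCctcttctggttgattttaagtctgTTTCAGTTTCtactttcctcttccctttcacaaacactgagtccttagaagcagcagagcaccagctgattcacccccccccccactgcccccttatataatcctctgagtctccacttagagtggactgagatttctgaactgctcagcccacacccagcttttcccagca
The Olfm5 window held 1 E-box of this form and 1 GATA motif, the Mrvi1 window 2 and 1, and the Rag1 and Ptcra windows 3 E-boxes each and no GATA motif. Of the 15 largest falls, 10 had a window, and of these 7 held CAGNTG and 4 held AGATAA. Of the 15 largest rises, 10 had a window, 3 with CAGNTG and 1 with AGATAA. Over all falls called and apart (terms set out below), 762 windows held CAGNTG in 49.2% and AGATAA in 6.82%. Over all such rises, 1151 windows held them in 39.4% and 5.73%. The shares over the 7864 measured genes with a window were 42.4% for CAGNTG and 6.38% for AGATAA, and over all 27025 windows 51.1% and 11.4%. The Ifit3 window held 2 matches to that interferon motif. It was in 7 of 14 windows of the measured interferon response genes, in 3 of 9 windows of those that fell, in 3.10% of windows of measured genes and in 3.49% of all windows. A match is a run of letters and was not tested as a binding site.

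All levels below are log2 signals after normalization, given for replicates 1, 2 and 3 of a group in that order, and changes are the knockout group minus NHD13 on the same scale with their standard error (SE). A gene is called where limma's adjusted p was under 0.05, and its groups are apart where the lowest array of one group lies above the highest of the other. Where settings that ended a call are listed, the replicate number as a block is left out and is reported at the end. The 6 arrays detected 17365 to 18358 probes each, and their summed intensities ran from 21534022 to 35384740. Over all measured genes 14.9% were called higher and 10.7% lower, and each list count below stands beside these shares. Where a list below has 0 calls by limma in a direction, 0 of its genes had an unadjusted p under 0.05 in that direction either. The exceptions are 1 rising gene each among the progenitor, p53, gamma delta and immediate early lists, and 2 falling genes of the BCL2 family. Correlations between arrays were 0.949 to 0.961 within NHD13, 0.892 to 0.968 within the knockout group and 0.853 to 0.918 between the groups.

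Knockout replicate 1 stood apart from the other two knockout arrays. On it 384 genes lay more than 4-fold from both other arrays of its group while those lay within 2-fold of each other, against 11 to 30 genes for each of the other 5 arrays. The genes furthest above were led by S100a8, Mpo and Ctsg, granule proteins of myeloid cells, and those furthest below held Cd2 and Dntt, genes of T-cell precursors. Mpo was at 7.31, 9.57 and 9.82 in NHD13 and at 14.28, 5.27 and 4.64 in the knockout group. Cd3e, part of the CD3 complex that signals for the T cell receptor, was at 13.71, 13.33 and 13.43 and 9.58, 13.15 and 13.09. Summed signals of 10 DN thymocyte markers were 65240, 53512 and 46444 intensity units in NHD13 and 15000, 61102 and 61456 in the knockout group. Knockout replicate 1 thus held the lowest of the 6. Thy1, Cd3e, Cd3g and Bcl11b were the brightest of these markers on every NHD13 array and weigh most in those sums. Rag1 and Ptcra were dim there, at 6.68, 6.48 and 5.38 and at 5.54, 5.80 and 5.81. Summed signals of 19 myeloid markers were 8797, 59470 and 7299 in NHD13 and 101060, 1550 and 4239 in the knockout group. The highest was on knockout replicate 1, with high signal also on NHD13 replicate 2. Several results that rest on the array labelled knockout replicate 1 are given with and without it. Changes given only on all arrays may depend on it too. Cd8a was detected on none of the 6 arrays and Cd4 on 1 of each group, while the Cd8b1 probe read 12.95, 13.53 and 12.65 and 12.49, 11.93 and 11.97. Each array reads sorted cells in bulk, so fewer cells of a type and less RNA per cell cannot be told apart.

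The signal of undetected probes puts the arrays into 2 background classes. One holds all 3 knockout arrays and wild-type replicates 1 to 3, the other all 3 NHD13 arrays and wild-type replicates 4 to 6. Among the 6 arrays compared, class and genotype therefore cannot be told apart. A fit with the class as a term draws on wild type alone for its estimate, and its values are given where they end a call. Knockout replicate 3 lacked the signal of Xist, the RNA that silences an X chromosome in females, at 11.05, 11.09 and 12.69 in NHD13 and 10.98, 11.90 and 4.54 in the knockout group.

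**Figure D1:**
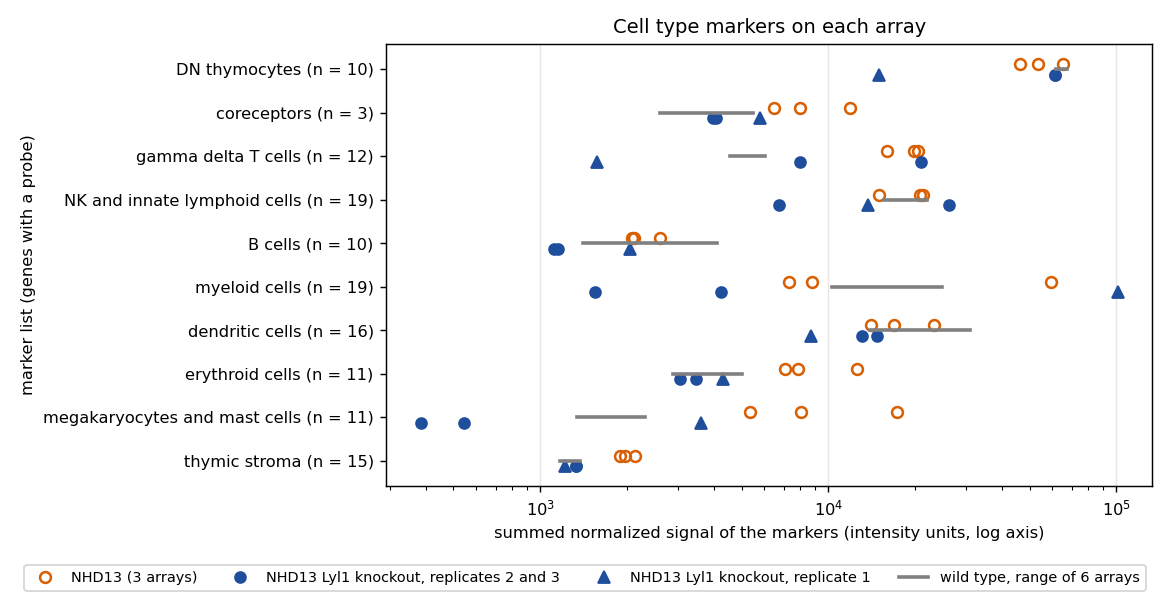
Summed normalized signal of cell type markers (intensity units, log axis) on each of the 6 arrays, with the range of the 6 wild-type arrays as a grey line. Knockout replicate 1 (triangle) is lowest for DN thymocyte markers at 15000 and highest for myeloid markers at 101060.

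Lyl1 itself was detected on all 3 NHD13 arrays and on none of the knockout arrays. Its levels were 11.18, 11.19 and 11.10 in NHD13 and 4.75, 4.73 and 4.68 in the knockout group, and the groups were further apart than any spread within them. The change was -6.44 ± 0.18 SE, adjusted p = 2.16e-09, a fall of at least 54.0-fold. Wild type stood between the groups at 7.19 ± 0.23 (mean ± SD, n = 6). Here and below, "at least" marks a fold in which an array of the dimmer group did not detect the probe, and it is set against the lowest signal among detected probes on that array.

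Of the 9621 genes, 2465 were called (25.6%), 1438 higher (14.9%) and 1027 lower (10.7%) in the knockout group. The groups were apart for 3821 genes (39.7%), and 2335 were both called and apart (24.3%), 1367 higher (14.2%) and 968 lower (10.1%). Of the 9621, 140 genes were detected on all 3 knockout arrays and no NHD13 array, and 71 the other way. These passed the detection filter through 1 group alone, so that they differ follows in part from the rule. Among genes called and apart, changes of over 2-fold were found for 651 higher and 571 lower genes, and of over 8-fold for 27 and 37. NHD13 replicate 1 was the NHD13 array nearest to the knockout group for 59.8% of the higher and 58.6% of the lower genes of this kind. On probes, 4520 of 18130 were called (24.9%). That count fell to 2233 in a fit of the 6 arrays alone, to 2680 without NHD13 replicate 2 and to 2862 without NHD13 replicate 3. Without knockout replicate 1 it was 4135, and 3413 of the calls were kept in the same direction.

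**Figure D2:**
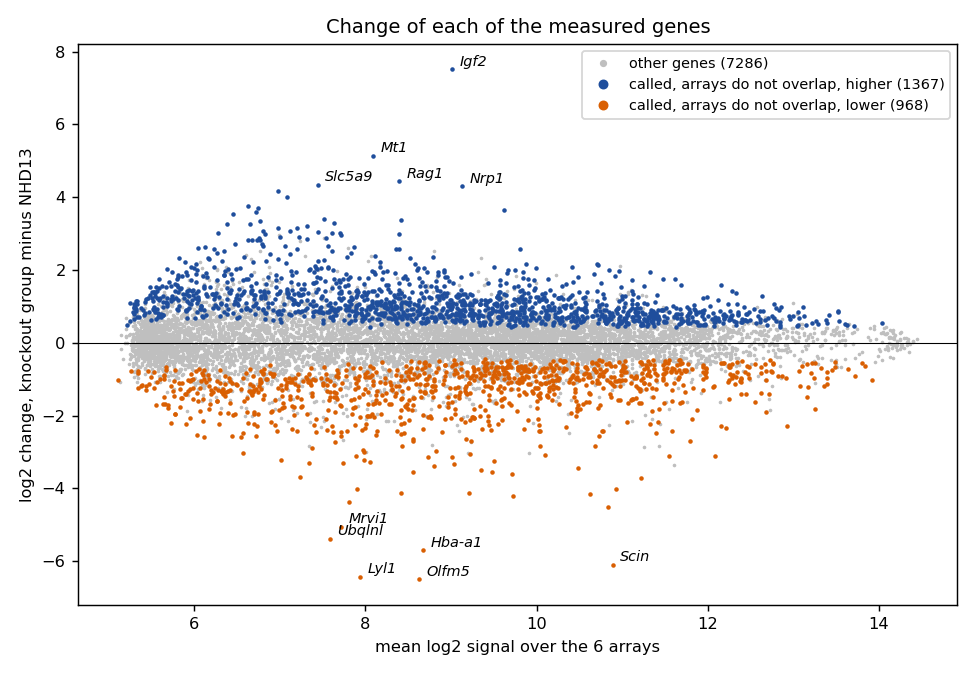
Log2 change of each of the 9621 genes (vertical axis) against its mean log2 signal over the 6 arrays (horizontal axis). Genes called with non-overlapping arrays are blue (1367 higher in the knockout group) or orange (968 lower). Lyl1 and Olfm5 sit at the bottom and Igf2 at the top.

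Several of the largest falls were of genes bright on every NHD13 array and at or near background on the knockout arrays. Olfm5, an olfactomedin-domain gene, was at 11.45, 11.96 and 12.22 in NHD13 and at 6.56, 4.99 and 4.59 in the knockout group. Only 1 knockout array detected it, and the change was -6.50 ± 0.51 SE, adjusted p = 2.64e-05, at least 68.7-fold. Ubqlnl, a ubiquilin-like gene, was at 9.86, 10.07 and 10.90 and 5.30, 4.78 and 4.62, with no knockout and no wild-type array detecting it. It fell by at least 29.4-fold (-5.38 ± 0.26 SE, adjusted p = 3.99e-07). Mrvi1, a substrate of the cGMP-dependent kinase in smooth muscle and platelets, was at 9.65, 10.64 and 10.44 and 4.94, 5.08 and 5.57 and fell by at least 27.2-fold (-5.05 ± 0.26 SE, adjusted p = 7.36e-07). Wild type had Olfm5 and Mrvi1 at 5.38 ± 0.62 and 4.94 ± 0.21 (mean ± SD, n = 6), so levels without Lyl1 lay near those of wild type. Scin, an actin-severing protein, was at 13.67, 14.06 and 14.08 and 9.85, 8.27 and 5.40, a wide spread in the knockout group that still left the groups apart (-6.10 ± 0.79 SE, adjusted p = 6.07e-04). In wild type Scin was at 10.82 ± 0.38. All 4 genes were called under every alternative setting that kept their probes.

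Several further falls belong to receptors and secreted factors of blood cells. Angpt1, a ligand of the Tek receptor, was at 9.79, 9.98 and 10.22 in NHD13 and 6.71, 5.21 and 4.96 in the knockout group (-4.37 ± 0.52 SE, adjusted p = 3.72e-04). Il10ra, the ligand-binding chain of the interleukin-10 receptor, was at 11.44, 12.19 and 11.85 and 8.86, 7.05 and 6.94 (-4.21 ± 0.43 SE, adjusted p = 1.40e-04). Clec4e, a lectin receptor of myeloid cells, was at 10.49, 10.29 and 10.65 and 7.69, 6.06 and 5.35 (-4.11 ± 0.60 SE, adjusted p = 0.00113). For all 3 the highest knockout array was replicate 1, the array with the highest sum of myeloid markers, and it still lay below every NHD13 array. Il31ra, a cytokine receptor chain, was at 8.54, 10.73 and 10.45 and 7.96, 4.98 and 4.73 (-4.02 ± 0.75 SE, adjusted p = 0.00347). Cxcr1, a chemokine receptor, and Mdga1, a membrane protein best known from neurons, were detected on every NHD13 array and on no knockout or wild-type array. They fell by at least 3.09-fold (-2.24 ± 0.15 SE, adjusted p = 7.81e-06) and at least 6.43-fold (-3.03 ± 0.19 SE, adjusted p = 3.75e-06).

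Some of the largest falls were of genes known from erythroid, megakaryocytic or mast cells, and in most of those described here knockout replicate 1 was the highest knockout array. The marker lists of these cells held few calls: 0 of 5 measured erythroid genes rose and 1 fell (median -0.19), and 0 of 4 measured genes of megakaryocytes and mast cells rose and 1 fell (median 0.32). The falls in these lists were Hba-a1 and Cpa3, while Klf1, Hbb-bh1, Gp9, Itga2b and Fcer1a had positive changes of 0.29, 0.19, 0.66, 0.51 and 0.13 and were not called. The erythroid list does not hold Hbb-bt and Hbb-bs, so these enter neither its counts nor its sum. Leaving out knockout replicate 1 gave 2 erythroid falls (median -0.47) and 1 of megakaryocytes and mast cells (median -0.24). Hba-a1, an alpha-globin gene, was at 11.70, 12.85 and 10.02 in NHD13 and 4.58, 5.50 and 7.39 in the knockout group (-5.70 ± 0.90 SE, adjusted p = 0.00155), with replicate 1 the lowest. The beta-globin gene Hbb-bt was at 12.37, 13.50 and 12.23 and 12.18, 5.73 and 7.76, so knockout replicate 1 nearly reached the lowest NHD13 array. Its neighbour Hbb-bs, a near-identical copy, was at 12.62, 13.85 and 12.35 and 12.33, 6.33 and 8.07, and the probes may read both, as the Hba-a1 probe may read Hba-a2. The changes were -4.15 ± 1.21 SE and -4.03 ± 1.15 SE, with adjusted p of 0.0271 and 0.0251. The call of Hbb-bt ended without the filter on dim probes, in the fit of the 6 arrays alone, with the background class as a term, without knockout replicates 2 and 3 in turn and without NHD13 replicates 2 and 3 in turn (adjusted p from 0.058 to 0.266). That of Hbb-bs ended without the filter on dim probes, in the fit of the 6 arrays alone, with the background class as a term, without knockout replicates 2 and 3 in turn and without NHD13 replicates 2 and 3 in turn (adjusted p from 0.0505 to 0.262). Nfe2, a transcription factor of megakaryocytes and erythroid cells, was at 12.98, 13.34 and 12.89 and 12.54, 8.20 and 7.34 (-3.71 ± 0.95 SE, adjusted p = 0.0152), and its call ended in the fit of the 6 arrays alone, with the background class as a term, without knockout replicate 2 and without NHD13 replicate 2 (adjusted p from 0.0529 to 0.0974). Cpa3, a mast cell protease also found in early progenitors, was at 12.30, 12.92 and 14.05 and 11.38, 6.55 and 7.82 (-4.51 ± 0.92 SE, adjusted p = 0.00541). Its call ended in the fit of the 6 arrays alone (adjusted p = 0.0575). Summed erythroid markers were 7072, 12537 and 7879 intensity units in NHD13 and 4300, 3057 and 3477 in the knockout group, with Epor, Ermap and Slc4a1 undetected on all 6 arrays. Summed markers of megakaryocytes and mast cells were 5350, 8059 and 17321 and 3611, 386 and 545, with Gata1 and Ppbp undetected. Cpa3 alone made up 94.3% to 97.7% of that sum on the NHD13 arrays and 24.2% to 73.9% on the knockout arrays, and Tfrc, the transferrin receptor, and Hba-a1 most of the erythroid sum. Both sums were lower on every knockout array than on any NHD13 array, and their part in these falls was not tested. The erythroid sum leaves out Hbb-bt and Hbb-bs, which knockout replicate 1 read at 12.18 and 12.33.

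The largest rise was that of Igf2, a fetal growth factor from an imprinted locus. Only 1 NHD13 array detected it, at 4.93, 5.90 and 4.93, whereas the knockout arrays were at 13.89, 11.003 and 13.40 and wild type at 6.25 ± 0.27. It rose by at least 143-fold (7.51 ± 0.58 SE, adjusted p = 2.55e-05), to a level above wild type. Mt1, a metallothionein that binds zinc and other metals, was at 5.18, 6.10 and 5.27 and 12.77, 7.84 and 11.35 and rose by at least 31.7-fold (5.14 ± 0.89 SE, adjusted p = 0.00248), with the knockout arrays far from each other. Cdkn1c, an imprinted inhibitor of cyclin-dependent kinases, was at 7.24, 5.46 and 4.98 and 8.19, 9.34 and 8.67 (2.84 ± 0.47 SE, adjusted p = 0.00185). These 3 were called under every alternative that kept their probes.

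Several other rises are given beside the wild-type level. Nrp1, a co-receptor for semaphorins and VEGF, was at 6.53, 6.89 and 7.51 in NHD13 and 10.67, 11.74 and 11.43 in the knockout group (4.298 ± 0.30 SE, adjusted p = 8.24e-06), and at 10.80 ± 0.20 in wild type. Ctla4, an inhibitory receptor of T cells, was at 4.95, 5.79 and 6.70 and 8.72, 9.34 and 9.56 (3.39 ± 0.37 SE, adjusted p = 2.60e-04), with wild type at 9.34 ± 0.25. Slc5a9, a sugar transporter, was at 5.27, 5.78 and 4.78 and 7.68, 10.76 and 10.41 (4.34 ± 0.61 SE, adjusted p = 9.70e-04) against 9.32 ± 0.23 in wild type. The knockout arrays of all 3 genes were above every NHD13 array by a wide gap. Cenpv, a protein of centromeres, was at 8.13, 8.20 and 7.05 and 11.77, 11.16 and 11.43 (3.66 ± 0.33 SE, adjusted p = 7.37e-05), above the wild-type level of 9.61 ± 0.36. Neo1, a receptor of netrins and repulsive guidance molecules, was detected on 3 knockout arrays and on no NHD13 or wild-type array. Neo1 levels were 4.49, 4.77 and 4.79 and 7.26, 8.69 and 8.68, at least 6.90-fold higher (3.53 ± 0.31 SE, adjusted p = 7.06e-05). A second, dimmer probe of Neo1 changed by 0.84 and was not called. Vopp1 and Evi5 had some of the smallest adjusted p among the rises, with changes of 3.26 ± 0.22 SE, adjusted p = 8.24e-06 and 2.82 ± 0.22 SE, adjusted p = 2.64e-05. Afdn, an adaptor of cell junctions, was at 4.78, 4.77 and 5.10 and 9.73, 8.66 and 7.40 and rose by at least 9.02-fold (3.71 ± 0.52 SE, adjusted p = 9.45e-04).

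**Figure D3:**
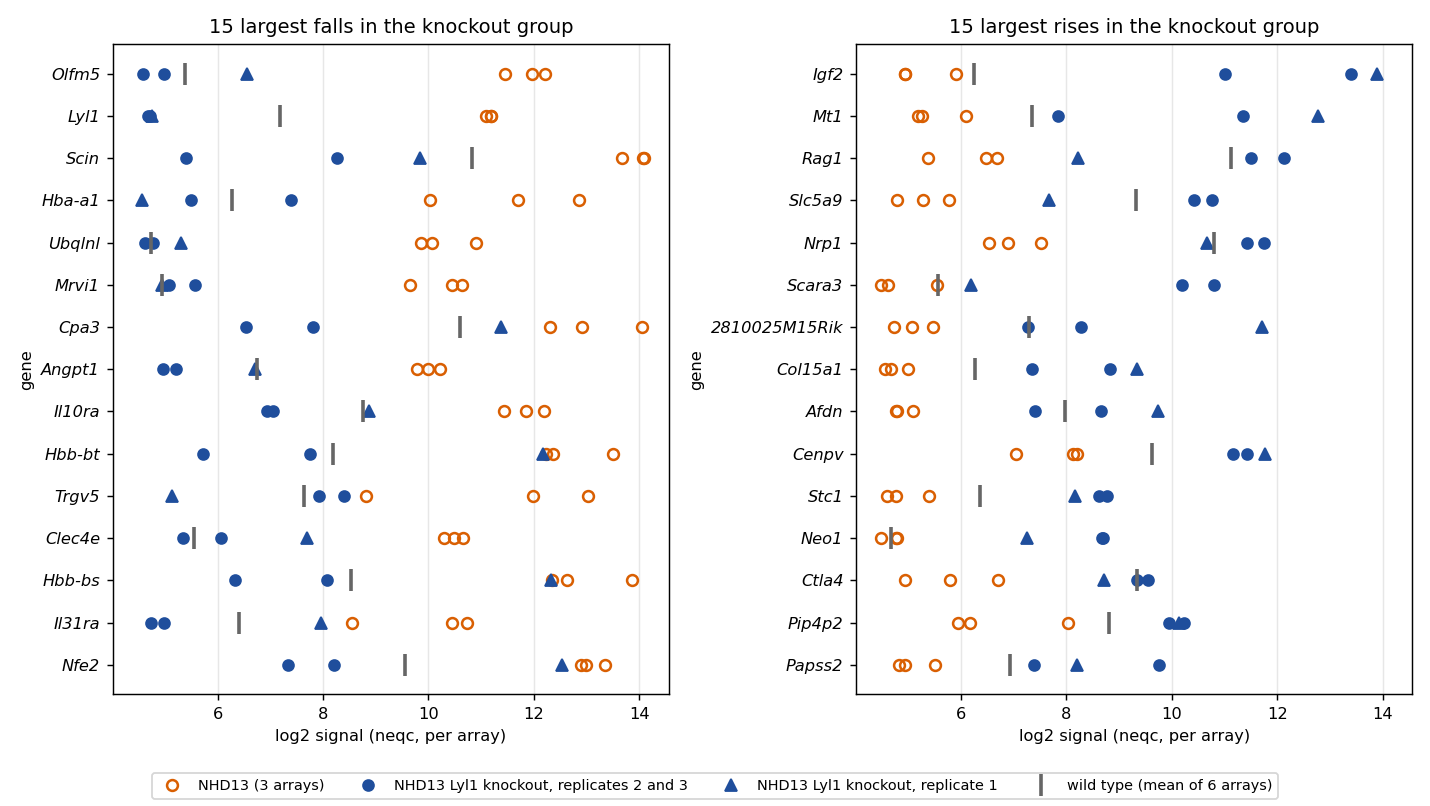
Log2 signal on each of the 6 arrays for the 15 largest falls (left) and rises (right) among genes called with non-overlapping arrays, with the mean of 6 wild-type arrays as a grey tick. Lyl1 falls to the same level on all 3 knockout arrays, while Hbb-bt, Hbb-bs and Nfe2 show knockout replicate 1 (triangle) close to NHD13.

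Of the 22 genes of Lyl1 itself, its partners and the Id inhibitors of E proteins, 17 were measured, with 1 higher and 4 lower and a median change of -0.54, against 0.06 over all genes. The shares were 5.88% higher and 23.5% lower, against 14.9% and 10.7% of all genes. The 4 lower genes were Cbfa2t3, Tcf4, Ldb1 and Lyl1 itself, the deleted gene, whose fall follows from the genotype. Cbfa2t3, a corepressor found in Tal1 and Lyl1 complexes, was at 11.24, 11.94 and 11.65 in NHD13 and 10.50, 10.07 and 9.81 in the knockout group (-1.48 ± 0.22 SE, adjusted p = 0.00111) and was called under every alternative. The E protein gene Tcf4 was at 12.27, 12.92 and 13.10 and 11.30, 11.96 and 11.95 (-1.03 ± 0.31 SE, adjusted p = 0.031), and its call ended without the filter on dim probes, in the fit of the 6 arrays alone, without knockout replicate 1 and without NHD13 replicates 2 and 3 in turn (adjusted p from 0.0616 to 0.113). Ldb1, the dimerising adaptor of the complex, was at 13.45, 13.50 and 13.53 and 12.90, 12.90 and 13.02 (-0.55 ± 0.16 SE, adjusted p = 0.0282). Its call ended with median scaling, in the fit of the 6 arrays alone, without knockout replicates 1 and 2 in turn and without NHD13 replicates 2 and 3 in turn (adjusted p from 0.0602 to 0.382). The count of 4 lower genes was 2 without NHD13 replicate 2 and 2 without NHD13 replicate 3. Id2, which binds E proteins and keeps them off DNA, was at 7.38, 9.06 and 7.41 and 9.30, 9.44 and 10.92 (1.94 ± 0.50 SE, adjusted p = 0.0164), and its call ended in the fit of the 6 arrays alone, with the background class as a term, without knockout replicate 3 and without NHD13 replicate 3 (adjusted p from 0.0541 to 0.223).

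Lmo2, the LIM-domain adaptor that joins Lyl1 to Ldb1, was not called, and its values split the knockout group. It was at 10.75, 11.69 and 11.87 in NHD13 and at 12.60, 6.21 and 6.37 in the knockout group (-3.04 ± 1.31 SE, adjusted p = 0.112). Replicates 2 and 3 lay far below every NHD13 array and replicate 1 above all of them. Without knockout replicate 1 the change was -5.14 (adjusted p = 2.27e-04). The wild-type level was 7.84 ± 0.83. Gata2, a GATA factor of stem cells and mast cells, had the same split, at 7.27, 7.98 and 10.53 and 9.99, 4.81 and 4.53 (-2.15 ± 1.18 SE, adjusted p = 0.206), and -3.92 without that replicate (adjusted p = 0.00291). Gata3, the GATA factor of T cells, was at 11.78, 11.56 and 11.05 and 9.28, 11.06 and 10.88 (-1.06 ± 0.40 SE, adjusted p = 0.0731), and without knockout replicate 2 the change was -1.38 (adjusted p = 0.0415). Id1 was at 5.21, 6.22 and 6.58 and 9.12, 7.78 and 5.98 (1.62 ± 0.60 SE, adjusted p = 0.0686), and 2.44 without knockout replicate 3 (adjusted p = 0.00441). Among the 8 others, Tcf3, Tcf12, Id3, Lmo4, Ssbp2, Ssbp3, Runx1 and Fli1, none was called by the brightest probe, and changes ran from -0.59 (Runx1) to 0.43 (Ssbp2). Of these 8, 0 had an unadjusted p under 0.05 in limma. The 3 kept probes of Tcf12 disagreed: 1 dimmer probe was called lower at -1.33, and the others were at -0.22 and -0.36. With the background class as a term, Runx1 and Fli1 were called lower (-1.91, adjusted p = 0.0119, and -1.53, adjusted p = 0.00126).

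Of 12 measured regulators and receptors of blood progenitors, 0 rose and 4 fell (33.3%, against 10.7% of all genes), with a median change of -0.23. Beside Angpt1 and Nfe2 these were Hhex and Kit. Hhex, a homeobox factor of haematopoietic progenitors, was at 11.61, 12.10 and 12.34 in NHD13 and 11.40, 7.91 and 9.02 in the knockout group (-2.57 ± 0.64 SE, adjusted p = 0.0138), and its call ended in the fit of the 6 arrays alone, with the background class as a term and without NHD13 replicate 3 (adjusted p from 0.0505 to 0.0874). Kit, the receptor of stem cell factor, was at 12.63, 13.72 and 12.90 and 12.49, 10.58 and 11.97 (-1.40 ± 0.44 SE, adjusted p = 0.0379). Its call ended with median scaling, without the filter on dim probes, in the fit of the 6 arrays alone, with the background class as a term, without knockout replicates 2 and 3 in turn, without NHD13 replicates 2 and 3 in turn and without wild-type replicates 5 and 6 in turn (adjusted p from 0.0503 to 0.27). The count of 4 falls was 1 in the fit of the 6 arrays alone and 1 with the background class as a term. It was 2 without NHD13 replicate 2, 2 without NHD13 replicate 3 and 2 without knockout replicate 2. Without knockout replicate 1 it was 5, with a median of -0.80. In both Hhex and Kit knockout replicate 1 was close below the lowest NHD13 array. As a mean over the list, the knockout arrays lay 1.24, -1.53 and -1.38 from the NHD13 mean, so replicate 1 was above it and the others below. Genes of this list that were bright on that replicate and not called were Cd34, a surface protein of progenitors, at 5.06, 5.58 and 5.37 and 9.92, 5.17 and 5.52, and Spi1, a myeloid transcription factor, at 5.77, 7.70 and 7.27 and 9.41, 4.69 and 4.72. Of the 19 measured HOX genes and cofactors, 0 rose and 1 fell, with a median of -0.16. The 1 call was Hoxa3, at 5.80, 6.998 and 6.95 and 5.19, 6.05 and 5.15, whose arrays overlapped (-1.12 ± 0.34 SE, adjusted p = 0.0303), and it ended without the filter on dim probes, in the fit of the 6 arrays alone, with the background class as a term, without knockout replicates 1 and 3 in turn and without NHD13 replicates 2 and 3 in turn (adjusted p from 0.0626 to 0.205). Hoxa7 and Hoxa9, HOX genes of blood progenitors, were at 12.49, 12.24 and 12.45 and 7.22, 9.11 and 5.67 in NHD13 and at 11.96, 12.55 and 12.24 and 8.12, 8.59 and 7.64 in the knockout group. Their arrays overlapped, with changes of -0.15 ± 0.31 SE, adjusted p = 0.77 and 0.78 ± 0.62 SE, adjusted p = 0.386.

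Of 17 measured genes of receptor recombination and the pre-T cell receptor, 2 rose (11.8%, against 14.9% of all genes) and 1 fell (5.88%, against 10.7%), shares no higher than the background, with a median of -1.15. Rag1, which makes the recombinase with Rag2, was at 6.68, 6.48 and 5.38 in NHD13 and 8.22, 11.49 and 12.13 in the knockout group. It rose by at least 21.4-fold (4.44 ± 0.75 SE, adjusted p = 0.00222), and wild type was at 11.12 ± 0.16. Ptcra, the invariant chain of the pre-T cell receptor, was at 5.54, 5.80 and 5.81 and 6.61, 9.93 and 10.21 (3.20 ± 0.71 SE, adjusted p = 0.00807), against 9.11 ± 0.36 in wild type. In both genes replicate 1 was the lowest knockout array and still above all NHD13 arrays. The call of Ptcra ended in the fit of the 6 arrays alone (adjusted p = 0.0674), while that of Rag1 held under every alternative that kept its probe. Fyn, a kinase next to the receptor, was at 9.03, 8.32 and 8.66 and 6.72, 8.02 and 7.78 (-1.17 ± 0.39 SE, adjusted p = 0.0472), and its call ended without the filter on dim probes, in the fit of the 6 arrays alone, with array weights, without knockout replicates 1 and 3 in turn, without NHD13 replicates 1, 2 and 3 in turn and without wild-type replicates 2, 3, 4 and 5 in turn (adjusted p from 0.0523 to 0.153).

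Without knockout replicate 1, 5 genes of the list rose, 1 fell and the median turned from -1.15 to 0.23. Cd3d, a chain of the receptor complex, was at 11.88, 11.73 and 10.79 in NHD13 and 8.51, 13.12 and 13.33 in the knockout group. Its change was 0.18 on all arrays (adjusted p = 0.907) and 1.75 without replicate 1 (adjusted p = 0.00155). Dntt, which adds bases at the joints of receptor genes, was at 11.77, 11.40 and 10.86 and 5.35, 11.60 and 11.24 (-1.95 ± 1.19 SE, adjusted p = 0.255). Zap70, the kinase that the receptor recruits, was at 12.42, 12.35 and 12.38 and 6.71, 12.02 and 12.17 (-2.09 ± 1.05 SE, adjusted p = 0.169). For Dntt and Zap70 only replicate 1 lay far from the NHD13 arrays. Without it their changes were 0.07 (adjusted p = 0.87) and -0.29 (adjusted p = 0.30). The lower sum of DN thymocyte markers and the higher sum of myeloid markers on replicate 1 moved with these values. The part of these sums in them was not tested.

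Of 16 measured transcription factors of the T lineage, 1 rose (6.25%, against 14.9% of all genes) and 3 fell (18.8%, against 10.7%), with a median of -0.37. Myb, needed for the proliferation and survival of precursors, was at 10.13, 11.29 and 10.56 in NHD13 and 7.98, 8.16 and 8.65 in the knockout group (-2.39 ± 0.34 SE, adjusted p = 9.60e-04) and was called under every alternative. Tox, a factor of thymocyte selection, was at 12.08, 12.58 and 12.65 and 8.81, 11.07 and 10.76 (-2.22 ± 0.45 SE, adjusted p = 0.00522), and its call ended in the fit of the 6 arrays alone (adjusted p = 0.0563). Ets2 was the 1 rise, at 10.40, 9.31 and 8.86 and 10.42, 11.68 and 11.13 (1.55 ± 0.37 SE, adjusted p = 0.0111), and its call ended in the fit of the 6 arrays alone and with the background class as a term (adjusted p from 0.0794 to 0.111). The third fall, Ikzf1, was small at -0.47 ± 0.16 SE, adjusted p = 0.0479, 1 of its other probes had the opposite sign, and the call was lost in 16 of 20 alternatives. Without knockout replicate 1, 4 of the 16 rose and 2 fell, and Lef1, a partner of beta-catenin, was among the rises. Lef1 was at 7.79, 7.70 and 6.70 and 4.73, 9.97 and 9.44 (0.65 ± 0.995 SE, adjusted p = 0.675), and changed by 2.31 without that replicate (adjusted p = 6.57e-04).

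The Notch pathway drives T-cell commitment in the thymus. Of its 9 measured receptors and targets 2 rose and 1 fell, with a median of 0.22. Notch1, the receptor used by early thymocytes, was at 12.06, 12.39 and 12.27 in NHD13 and 11.86, 12.26 and 12.33 in the knockout group, with overlapping arrays (-0.09 ± 0.20 SE, adjusted p = 0.775). Its target Hes1 was at 10.16, 9.56 and 10.75 and 9.35, 9.30 and 8.91 (-0.97 ± 0.30 SE, adjusted p = 0.035), and the call ended with median scaling, without the filter on dim probes, in the fit of the 6 arrays alone, with the background class as a term, without knockout replicates 2 and 3 in turn and without NHD13 replicates 1 and 3 in turn (adjusted p from 0.0555 to 0.404). Heyl was detected on 3 knockout arrays and on no NHD13 or wild-type array, at 5.09, 4.88 and 4.80 and 5.63, 7.01 and 7.38 (1.75 ± 0.35 SE, adjusted p = 0.005), and its call ended in the fit of the 6 arrays alone and with the background class as a term (adjusted p from 0.0521 to 0.0629). Myc, a growth regulator that Notch1 induces in thymocytes, was at 7.09, 7.44 and 6.04 and 7.80, 8.29 and 8.20 (1.24 ± 0.35 SE, adjusted p = 0.0219). Its call ended with median scaling, in the fit of the 6 arrays alone, with the background class as a term, without knockout replicates 2 and 3 in turn and without NHD13 replicate 3 (adjusted p from 0.0571 to 0.0856).

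Genes of later thymocytes and of T-cell migration lay lower in the knockout group. All 9 measured members had a negative change, 5 fell (55.6%, against 10.7% of all genes) and 0 rose, with a median of -0.99. Klf2, which sets the exit programme of mature thymocytes, was at 12.97, 13.60 and 12.70 in NHD13 and 8.42, 10.67 and 10.89 in the knockout group (-3.10 ± 0.51 SE, adjusted p = 0.00193). The integrin chain Itga4 was at 8.29, 9.72 and 8.26 and 6.40, 6.65 and 6.36 (-2.29 ± 0.51 SE, adjusted p = 0.00822), and its call ended with the background class as a term (adjusted p = 0.0814). Cd27, a receptor of the TNF family, was at 13.90, 13.73 and 13.87 and 12.88, 13.10 and 13.26 (-0.75 ± 0.18 SE, adjusted p = 0.0108), and its call ended with median scaling (adjusted p = 0.229). Ccr7, a homing receptor, was at 8.36, 7.70 and 7.39 and 6.35, 7.23 and 6.88 (-0.99 ± 0.27 SE, adjusted p = 0.0189), and its call ended in the fit of the 6 arrays alone, with the background class as a term, without knockout replicate 1 and without NHD13 replicate 1 (adjusted p from 0.0526 to 0.0952). The fifth was Cd1d1, which presents lipids (-0.69 ± 0.19 SE, adjusted p = 0.0204), and without knockout replicate 1 its change was -0.57 and not called (adjusted p = 0.0623). In each of these genes the knockout arrays did not overlap NHD13.

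Interferon response genes were lower in the knockout group. Of 22 measured genes 16 fell, 0 rose and all 22 had a negative change, with a median of -1.52 against 0.06 over all genes, where 10.7% of genes fell. As a mean over the list, the NHD13 arrays lay at -0.16, 0.41 and -0.26 and the knockout arrays at -1.92, -1.76 and -0.78 relative to the NHD13 mean. Oas2, a sensor enzyme of double-stranded RNA, was at 10.26, 12.26 and 11.25 in NHD13 and 7.78, 7.15 and 8.17 in the knockout group (-3.56 ± 0.43 SE, adjusted p = 4.37e-04). Usp18, which removes the modifier Isg15, was at 12.48, 12.26 and 11.20 and 8.97, 9.36 and 10.31 (-2.43 ± 0.36 SE, adjusted p = 0.00113). Oas2 and Usp18 were called under every alternative. Irf7, a transcription factor that amplifies the response, was at 9.65, 10.45 and 9.44 and 7.97, 7.58 and 8.69 (-1.77 ± 0.33 SE, adjusted p = 0.00344), with wild type at 6.60 ± 0.30.

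Ifit3, whose promoter window is printed above, was at 10.57, 12.03 and 10.58 in NHD13 and 8.11, 8.32 and 10.46 in the knockout group. The third knockout array was just below the lowest NHD13 array (-2.10 ± 0.55 SE, adjusted p = 0.0177), and the call ended in the fit of the 6 arrays alone, with the background class as a term, without knockout replicates 1 and 2 in turn and without NHD13 replicate 2 (adjusted p from 0.0568 to 0.105). Oasl1 had the same order, at 9.51, 9.96 and 9.62 and 4.81, 7.60 and 9.21 (-2.49 ± 0.77 SE, adjusted p = 0.0346), and its call ended without the filter on dim probes, in the fit of the 6 arrays alone, with the background class as a term, without knockout replicate 2 and without NHD13 replicates 1, 2 and 3 in turn (adjusted p from 0.0571 to 0.145). Isg15 itself was not called, at 12.07, 11.71 and 10.82 and 9.38, 10.10 and 11.21 (-1.30 ± 0.47 SE, adjusted p = 0.0615). The number of falls among the 22 was 7 in the fit of the 6 arrays alone, 8 with the background class as a term, 10 without NHD13 replicate 2 and 10 without knockout replicate 2, and it was 13 without knockout replicate 1. No gene of the list rose under any of these settings.

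DNA replication and mitosis genes were higher in the knockout group, and NHD13 replicate 1 lay close to it. Of 27 measured replication genes 17 rose, 0 fell and all 27 had a positive change, with a median of 1.002, where 14.9% of all genes rose. Of 22 mitosis genes 15 rose and 0 fell, with a median of 1.28. The groups were apart, with the knockout group higher, for 14 of the 27 replication genes and 7 of the 22 mitosis genes. Of all genes 22.5% were apart in that direction. As a mean over the replication list, the NHD13 arrays were at 0.73, -0.28 and -0.46 and the knockout arrays at 0.92, 1.38 and 0.82 relative to the NHD13 mean. For mitosis they were at 0.86, -0.19 and -0.67 and 1.42, 1.61 and 0.81, where knockout replicate 3 lay below NHD13 replicate 1. Mcm10, a factor of replication start, was at 10.92, 9.82 and 9.03 in NHD13 and 11.37, 11.91 and 11.45 in the knockout group (1.65 ± 0.36 SE, adjusted p = 0.00751), and its call ended in the fit of the 6 arrays alone (adjusted p = 0.0675). Rfc4, a subunit of the clamp loader, was at 10.32, 9.25 and 9.20 and 11.13, 11.38 and 11.28 (1.67 ± 0.27 SE, adjusted p = 0.0017). Rfc4 and its partner Rfc5 were called under every alternative, but a second, dimmer probe of Rfc5 changed by 0.11 and was not called.

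The mitotic kinase gene Aurkb was at 10.12, 9.07 and 7.73 in NHD13 and 11.38, 11.30 and 10.38 in the knockout group (2.04 ± 0.50 SE, adjusted p = 0.012), and its call ended in the fit of the 6 arrays alone (adjusted p = 0.0745). Nusap1, a spindle protein, was at 10.57, 9.50 and 9.11 and 11.75, 11.77 and 11.30 (1.88 ± 0.31 SE, adjusted p = 0.00196) and was called under every alternative. Plk1, a kinase of mitotic entry, was at 10.77, 8.83 and 8.27 and 11.26, 11.52 and 10.68 (1.86 ± 0.48 SE, adjusted p = 0.0162), with knockout replicate 3 just below NHD13 replicate 1, and its call ended in the fit of the 6 arrays alone, with the background class as a term, without knockout replicate 2 and without NHD13 replicates 2 and 3 in turn (adjusted p from 0.0568 to 0.0993). The counts depend on which arrays enter. Of the 27 replication genes 7 rose without NHD13 replicate 2, 6 without NHD13 replicate 3, 8 without knockout replicate 2 and 25 without NHD13 replicate 1. Of the 22 mitosis genes 5, 5, 5 and 21 rose in the same order. In the fit of the 6 arrays alone 3 replication and 4 mitosis genes rose, and with the background class as a term 8 and 6.

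Of 20 measured ribosome biogenesis genes and other targets of Myc, 9 rose (45.0%, against 14.9% of all genes), 0 fell and 11 were not called, with a median of 0.69. All but Nop56 (-0.10) had a positive change. Odc1, the first enzyme of polyamine synthesis, was at 10.94, 10.55 and 10.76 in NHD13 and 12.23, 12.61 and 12.64 in the knockout group (1.74 ± 0.18 SE, adjusted p = 1.40e-04). Nop58, a core protein of nucleolar ribonucleoprotein particles, was at 11.45, 11.36 and 11.27 and 12.27, 12.77 and 12.81 (1.26 ± 0.18 SE, adjusted p = 9.99e-04). Both were called under every alternative, and their groups were well apart. Ppat, the first enzyme of purine synthesis, was at 8.74, 7.99 and 8.54 and 9.67, 9.66 and 9.75 (1.27 ± 0.24 SE, adjusted p = 0.00333), and its call ended with the background class as a term (adjusted p = 0.0638). The count of 9 was 5 without NHD13 replicate 2, 5 without knockout replicate 3 and 6 without knockout replicate 2.

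**Figure D4:**
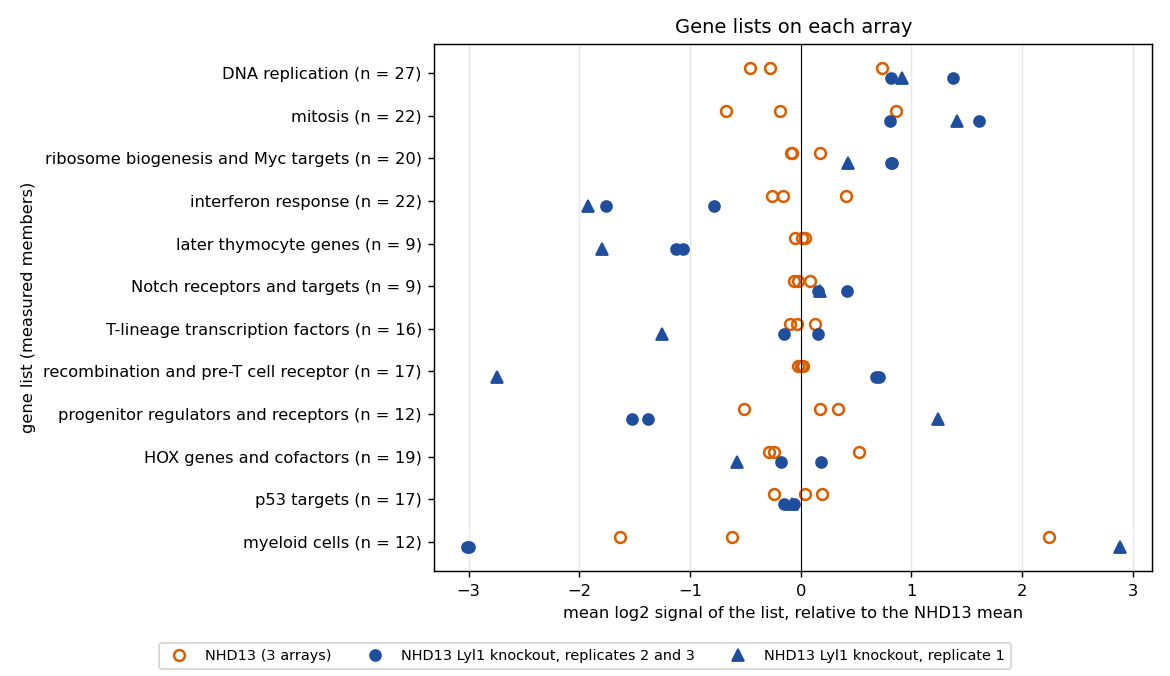
Mean log2 signal of each gene list on each of the 6 arrays, relative to the mean of the 3 NHD13 arrays (horizontal axis), with the number of measured genes in brackets. Replication, mitosis and ribosome genes lie to the right on all 3 knockout arrays and interferon genes to the left, while knockout replicate 1 (triangle) lies apart for myeloid, progenitor and recombination genes.

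Of 17 measured regulators of the G1 phase, 4 rose (23.5%, against 14.9% of all genes) and 1 fell (5.88%, against 10.7%), with a median of 0.42. Beside Cdkn1c the rises were E2f1, Ccne1 and Rb1, and 2 genes rose without NHD13 replicate 2 or 3 or knockout replicate 2 or 3. E2f1, which switches on replication genes, was at 10.37, 9.08 and 9.55 in NHD13 and 10.93, 11.04 and 10.77 in the knockout group (1.25 ± 0.26 SE, adjusted p = 0.00603), and its call ended in the fit of the 6 arrays alone (adjusted p = 0.0593). Ccne1, cyclin E1, was at 7.59, 7.08 and 6.71 and 8.37, 8.54 and 7.99 (1.17 ± 0.38 SE, adjusted p = 0.0427), and its call ended with median scaling, without the filter on dim probes, without knockout replicates 1, 2 and 3 in turn, without NHD13 replicates 2 and 3 in turn and without wild-type replicates 1 and 5 in turn (adjusted p from 0.0513 to 0.148). The fall was that of Cdkn2d, an inhibitor of Cdk4 and Cdk6, at 10.52, 10.12 and 10.40 and 9.29, 9.55 and 8.88 (-1.11 ± 0.28 SE, adjusted p = 0.0137), and its call ended with the background class as a term (adjusted p = 0.274). Of 17 measured p53 targets 0 rose and 2 fell (11.8%, near the 10.7% of all genes), with a median of -0.09. The counts were 1 and 3 without knockout replicate 1. The 2 falls were Trp53inp1, at 11.99, 11.85 and 11.77 and 9.42, 10.89 and 11.31 (-1.33 ± 0.37 SE, adjusted p = 0.0222), and Bbc3, a death-promoting BCL2 relative, at 9.76, 9.52 and 9.51 and 8.91, 8.44 and 9.004 (-0.81 ± 0.21 SE, adjusted p = 0.0166). The first call ended in the fit of the 6 arrays alone, with the background class as a term and without NHD13 replicates 1, 2 and 3 in turn (adjusted p from 0.0505 to 0.109), and the second in the fit of the 6 arrays alone and without knockout replicate 2 (adjusted p from 0.0568 to 0.066).

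Of 12 measured BCL2 family genes 1 rose and 0 fell, with a median of 0.34. The rises were 2 without knockout replicate 1 (median 0.52), without knockout replicate 2 or without NHD13 replicate 2, and 0 with median scaling or in the fit of the 6 arrays alone. Bcl2a1d, a death-protecting member, had a change of 1.92 without knockout replicate 1 (adjusted p = 0.0294) and of 1.52 on all arrays (adjusted p = 0.0564). The rise on all arrays was that of Bad, a death-promoting member, at 9.12, 9.17 and 9.16 in NHD13 and 10.46, 9.98 and 9.64 in the knockout group (0.88 ± 0.22 SE, adjusted p = 0.0147), and its call ended with median scaling and in the fit of the 6 arrays alone (adjusted p from 0.0621 to 0.0716). Bcl2, which protects from death, was at 9.46, 10.27 and 9.29 and 7.86, 8.76 and 9.58 with overlapping arrays (-0.94 ± 0.38 SE, adjusted p = 0.0878). Of 15 measured glycolysis genes 3 rose and 1 fell, median 0.33, while 1 rose without NHD13 replicate 2 or 3, and the median was 0.07 without knockout replicate 1. Tpi1, triosephosphate isomerase, was at 11.90, 11.58 and 11.47 and 13.10, 13.05 and 12.88 (1.36 ± 0.16 SE, adjusted p = 3.72e-04) and was called under every alternative. Slc2a3, a glucose transporter, was at 9.98, 10.46 and 11.10 and 9.06, 9.64 and 9.72 (-1.04 ± 0.27 SE, adjusted p = 0.0151), and its call ended in the fit of the 6 arrays alone, with the background class as a term and without NHD13 replicate 3 (adjusted p from 0.0554 to 0.0884). Of 13 measured immediate early and heat shock genes, which respond to handling of cells, 0 rose and 1 fell, Dnajb1 (-0.95 ± 0.21 SE, adjusted p = 0.00768), with a median of -0.01.

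Markers of other cells that a DN sort can hold gave few calls. Of 7 measured genes of gamma delta T cells 0 rose and 2 fell, with a median of -0.97. Leaving out knockout replicate 1 gave 1 rise and 2 falls with a median of -0.42, the rise being that of Gpr83 (4.68, adjusted p = 2.27e-04, against 2.95 and 0.0695 on all arrays). Blk, a kinase of gamma delta and B cells, was at 11.82, 11.51 and 11.60 in NHD13 and 6.13, 9.18 and 10.37 in the knockout group (-3.08 ± 0.75 SE, adjusted p = 0.0124). Blk lost its call in the fit of the 6 arrays alone and with the background class as a term (adjusted p from 0.0872 to 0.0903), and without knockout replicate 1 the change was -1.87 (adjusted p = 0.00249). Etv5 was at 10.83, 9.19 and 8.97 and 7.79, 7.67 and 7.56 (-1.99 ± 0.49 SE, adjusted p = 0.0134), and its call ended with the background class as a term (adjusted p = 0.173). The sum of 12 gamma delta markers was 20475, 19865 and 15964 in NHD13 and 1576, 7989 and 21043 in the knockout group, with overlapping groups and with Ccr10, Il17a, Il1r1, Il23r and Maf undetected on all 6 arrays. Cd163l1 was the brightest of these markers on every array but knockout replicate 1. The list does not hold the gamma variable segments Trgv4, Trgv5 and Trgv7, and all 3 fell, as given at the end.

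Of 14 genes of NK and innate lymphoid cells 0 rose and 1 fell (median 0.13). The counts were 3 and 1 without knockout replicate 1, the rises being those of Klra3, Klra7 and Klre1. The fall was that of Nkg7, a granule protein, at 13.33, 13.25 and 13.56 in NHD13 and 11.12, 10.11 and 11.90 in the knockout group (-2.34 ± 0.36 SE, adjusted p = 0.00135). The sum of 19 such markers was 15054, 21270 and 20835 and 13707, 6724 and 26335, without Gzmb and Ncr1, which no array detected. Of 9 dendritic cell genes 0 rose and 2 fell, Siglech (-1.99 ± 0.35 SE, adjusted p = 0.0025) and Tcf4, with a median of -1.03, and their summed signals were 14083, 23221 and 16865 and 8679, 13125 and 14761, with Ccr9, Clec9a and Itgax undetected. The dendritic counts were 1 and 1 without knockout replicate 1 and 0 and 1 without NHD13 replicate 2 or 3. Of 5 B cell genes 0 rose and 1 fell, Cd79b (-1.15 ± 0.36 SE, adjusted p = 0.035), with a median of -0.24. Its call ended without the filter on dim probes, without knockout replicates 2 and 3 in turn and without NHD13 replicates 1, 2 and 3 in turn (adjusted p from 0.057 to 0.1). B cell sums were 2123, 2601 and 2089 and 2046, 1155 and 1114, with Pax5 and Vpreb3 undetected. Of 2 measured genes of thymic stroma 1 fell, Pecam1 (-1.28 ± 0.17 SE, adjusted p = 7.18e-04), and sums were 1971, 1890 and 2140 and 1224, 1326 and 1332, with Foxn1, Psmb11, Epcam, Krt5 and Krt14 undetected on all 6 arrays. Pecam1, at 10.30, 10.32 and 10.40 and 8.88, 9.13 and 9.17, was the brightest stroma marker on every array, so it weighs most in the sum. Likewise Cd79b was the brightest B cell marker on every array and Tcf4 the brightest dendritic marker on every NHD13 array. Of 12 measured myeloid genes 0 were called by limma in either direction, and 0 had an unadjusted p under 0.05, with a median of -1.18. Without knockout replicate 1, 6 of these fell, with a median of -3.11.

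Among the 10 measured genes on each side of Lyl1 on chromosome 8, 5 of 20 were called, against 25.6% of all genes. The tightest of these was Gadd45gip1, undetected in NHD13 at 5.14, 5.08 and 5.32 and at 7.09, 6.99 and 6.99 in the knockout group (1.84 ± 0.18 SE, adjusted p = 1.28e-04). Calr, a chaperone of the endoplasmic reticulum, was at 9.63, 9.34 and 9.40 and 7.72, 7.48 and 7.66 (-1.84 ± 0.30 SE, adjusted p = 0.00192). The other 3 calls were Syce2, Farsa and Zswim4.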

How the data were processed

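The authors deposited a bead-summarised intensity for each of 45281 probes on each array, in 1 colour, and beside it a detection p-value against negative controls, per the file headers. RNA was prepared with the RNeasy Mini Kit, per the labels' protocols. BeadStudio and limma are named, without version, per the submitters' processing notes. The sources used here do not say whether background was subtracted. A deposited log2 table, of unstated normalization, correlates at 0.9998 with the levels used here and served as an alternative.

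The neqc function (offset 16) of limma 3.58.1, run under R 4.3.3, was applied to all 12 arrays. It corrects background, quantile-normalizes and takes log2. Kept probes had a detection p-value under 0.05 on 3 or more of the 6 arrays. A mean per group was fitted to all 12 arrays, so wild type adds to the estimate of the spread, and the contrast was tested with limma's moderated test and adjusted after Benjamini and Hochberg over 18130 probes. Of all probes, 34885 had 1 gene symbol, 18 several and 10378 none. A gene took its kept probe with the highest mean over the 6 arrays, and probes of different genes were not compared in level. Of the 33 called named genes with several kept probes, 0 had a probe called the other way and 2 (Ddx21 and Ikzf1) had one of opposite sign. In 18 of the 33 every kept probe was called alike. The rest were Bbc3, Cd79b, Cdc6, Ddx21, Fyn, Hbb-bt, Ikzf1, Itga4, Myb, Neo1, Nusap1, Pecam1, Rfc5, Tpi1 and Trp53inp1. Each of these had a dimmer probe that was not called. Named were the 15 largest rises and falls among genes called with arrays apart, the 5 of smallest adjusted p each way, up to 4 called members a list, all measured partners of Lyl1 and members that describe a list. Genes named outside that rule, such as Cd3d, Lef1, Irf7, Isg15, Hoxa7, Notch1, Bcl2, Gadd45gip1 and the genes around Olfm5, were chosen after their values were seen. Members and lists were chosen with earlier results of these data known. Marker sums use each gene's probe in linear units. The number of arrays limits the precision. The test was checked on simulated data. Gene order and promoters are those of RefSeq in GRCm38.p6, and the files name no build.

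The alternatives were median scaling, the deposited log2 table, probes detected on all 6 arrays, no filter, the 6 arrays alone, the replicate number as a block, the background class as a term, array weights and each array left out. Levels of the fusion transcript were not analysed here.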

Additional observations from a re-analysis of the deposited data

How the results depend on the processing

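Lyl1 was called lower under every alternative that kept its probe. It is undetected on the knockout arrays, so the filter for probes detected on all 6 arrays drops it. Of the 89 called named genes, 44 were called under every alternative that kept their probe (20 genes under 20 alternatives, 24 under the 19 without the filter for all 6 arrays), 25 lost the call under 1 to 4 of them and 20 under 5 or more, and 0 turned direction. In the fit of the 6 arrays alone 2233 probes were called against 4520, 1166 of them higher and 1067 lower, and 1113 genes were called and apart against 2335. That fit has fewer arrays to estimate the spread. With the background class as a term 3084 probes were called, 1738 higher and 1346 lower, and 1303 genes were called and apart. The cause of that difference was not tested, and the median change of all genes was 0.165 in that fit against 0.0556. With each of the 12 arrays left out in turn, called probes ran from 2680 to 4852, higher probes from 1424 to 2586, lower probes from 1256 to 2266, genes called and apart from 1443 to 2618, and the change of Lyl1 from -6.46 to -6.42. The lowest counts came without NHD13 replicate 2 (2680, 1424, 1256 and 1443) and without NHD13 replicate 3 (2862, 1543, 1319 and 1555). Median scaling gave 3976 calls, of which 45.3% were higher against 53.2%, and 4555 calls came from the deposited log2 values. Array weights gave 5811 calls, the filter for all 6 arrays 3895 and no filter 3771. With the replicate block 3487 probes were called, and the change of Lyl1 was the same at -6.44 (adjusted p = 5.67e-05). Deviations of same-numbered arrays correlated at -0.06, -0.14 and -0.04. With 3 arrays a group, these values cannot decide whether the numbers pair the arrays. The block ended the calls of 21 named genes, each of which also ended under another alternative, and the settings given beside a gene leave it out.

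Signal over background limits the dim genes: 13892 of 18130 kept probes were detected on all 6 arrays, and folds against undetected probes are bounds.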

Other observations

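Most called genes around Olfm5 on chromosome 7 were lower in the knockout group. Of the 10 measured genes on each side of it, 13 of 20 were called, 10 lower and 3 higher, against 25.6% of all genes. The region was looked at because Olfm5 and Ubqlnl led the falls, so the count is a description. The ubiquilin gene Ubqln5 was at 7.03, 7.40 and 7.45 in NHD13 and 4.90, 4.76 and 4.66 in the knockout group (-2.52 ± 0.20 SE, adjusted p = 2.99e-05). The olfactory receptor genes Olfr643 and Olfr644 were at 5.64, 7.13 and 7.49 and 6.38, 6.50 and 7.60 in NHD13 and at 5.25, 4.55 and 4.62 and 4.75, 4.51 and 4.61 in the knockout group. No knockout or wild-type array detected Ubqln5, Olfr643 or Olfr644, and every NHD13 array did. Like Ubqlnl, these genes passed the detection filter through NHD13 alone. Their place among the 10 lower genes therefore follows in part from the rule. On one side the row of falls ends at the beta-globin genes Hbb-bs and Hbb-bt and Trim21. On the other side it includes the Trim genes Trim6, Trim34a and Trim30d. Trim34a was at 9.44, 10.59 and 9.52 and 7.51, 6.97 and 7.98 (-2.36 ± 0.32 SE, adjusted p = 8.58e-04). The embryonic beta-globin gene Hbb-bh1, which lies between, was at 5.73, 5.59 and 5.25 and 5.96, 5.72 and 5.46 with overlapping arrays. Beyond these Trim genes, Fam160a2 was higher, at 5.14, 7.35 and 5.45 and 9.06, 9.24 and 9.53 (3.29 ± 0.45 SE, adjusted p = 7.77e-04).

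MHC genes were lower in part. Of 22 measured genes with symbols starting H2-, 0 rose and 9 fell, with a median of -0.89, where 10.7% of all genes fell. H2-Ob, a chain of the class II modulator H2-O, was at 10.70, 11.89 and 11.96 in NHD13 and 8.38, 7.64 and 7.68 in the knockout group (-3.62 ± 0.59 SE, adjusted p = 0.00178). The class I gene H2-D1 was at 13.88, 14.43 and 14.19 and 11.13, 12.74 and 13.18 (-1.82 ± 0.41 SE, adjusted p = 0.00875). H2-Aa, a class II chain of antigen-presenting cells, was at 7.19, 9.10 and 7.74 and 8.22, 7.65 and 8.35 with overlapping arrays. Probes of near-identical class I genes may read each other's RNA. All 3 measured variable segments of the T cell receptor gamma locus fell: Trgv4 (-2.30 ± 0.75 SE, adjusted p = 0.0419), Trgv5 (-4.13 ± 0.96 SE, adjusted p = 0.0101) and Trgv7 (-3.38 ± 0.79 SE, adjusted p = 0.0106). The call of Trgv5 ended in the fit of the 6 arrays alone (adjusted p = 0.0788). Trgv7 was at 11.99, 8.25 and 11.23 and 5.78, 7.62 and 7.95, and Trgv5 at 13.03, 8.82 and 11.99 and 5.13, 7.93 and 8.39, so NHD13 replicate 2 lay close to the knockout group in both. Of 6 measured Gimap genes, GTPases of lymphocytes, 0 rose and 2 fell. Of 5 measured Ly49 receptors 0 were called in either direction by limma on all arrays, and 0 had an unadjusted p under 0.05. Without knockout replicate 1, the Ly49 genes Klra3 and Klra7 were called higher (3.04, adjusted p = 0.0144, and 1.98, adjusted p = 0.0495). Klra3 was at 7.24, 7.27 and 6.11 in NHD13 and 4.55, 8.18 and 11.65 in the knockout group. Changes of the other Ly49 genes without that array are not given here.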
